A study of Mus musculus with 2 samples.

Results

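The genes described here are the Wnt ligands, their Frizzled receptors and Lrp5 and Lrp6 co-receptors, and the secreted inhibitors of the Sfrp, Frzb, Wif1 and Dkk families, chosen by their names in the design of the array. They comprised 41 genes of 27962 gene names, measured by 53 of 41174 probes, with 19 ligands, 10 receptors, 2 co-receptors and 10 inhibitors. Whole brain tissue came from C57BL/6J female mice that were 8 weeks old and had given birth on the same day (P0), and 3 genotypes were compared on 2 two-colour arrays. On array 1, the sample from TDAG51-/- dams (KO) was labelled with Cy3 and that from TDAG51+/+ dams (WT) with Cy5. On array 2, a TDAG51-/- sample was again in Cy3, and Cy5 carried the TDAG51-/-Tg2 sample (KO Tg). The genotype tags in the labels file the genotypes of both samples of an array under its Cy3 channel, so the direction of every ratio rests on the source name given for each channel. The Tg2 line lacks the endogenous gene and carries a TDAG51 transgene under the BAI1-AP4 promoter, which is active mainly in the cerebral cortex and hippocampus. Per the paper, the transgenic lines were backcrossed to C57BL/6J for a stated minimum of generations and crossed with TDAG51-/- mice. TDAG51, also named Phlda1, encodes a protein with a pleckstrin homology-like domain. There was 1 array for each comparison, without a dye swap, and neither the number of dams in a sample nor whether both Cy3 samples were the same extract is given in the sources used here. Hence the spread between animals was not measured, no test was possible for any gene, and every difference below is a description of these samples in which the genotype and the dye cannot be told apart.

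Wnt proteins are secreted lipid-modified glycoproteins that bind Frizzled receptors at the cell surface. Together with Lrp5 or Lrp6, the occupied receptor stabilizes β-catenin, which enters the nucleus and activates target genes with Tcf and Lef factors. Other Wnt signals act without β-catenin and orient cells within a tissue. Sfrp proteins, Frzb and Wif1 bind the ligands outside the cell, whereas Dkk1, Dkk2 and Dkk4 bind the co-receptors. In the brain, the pathway patterns the embryonic axis and the hippocampus, and in the adult it acts on neurogenesis, synapses and the blood-brain barrier.

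The largest difference among these genes was that of Wnt8b, and for several genes a pair of probes gave different answers. The middle part of the probes behind both statements (bases 16 to 45 of 60, 5′ to 3′, all in lower case because no base is singled out) is therefore shown, as the array design lists it. The coordinates, on mm7, are those of the whole probe, and the sources used here do not place the probes in exons or UTRs of that build.
Wnt8b, chr19:44405142-44405201, + strand: ggcaatttccaagcagtttgtggatgccct
Wnt3 probe 1, chr11:103925136-103925195, + strand: ccattcatcgaagtcccatgagaagcagga
Wnt3 probe 2, chr11:103926765-103926824, + strand: atgagcgcattgtaattatcctcgccatag
Dkk1 probe 1, chr19:30246086-30246145, - strand: cctcagtgtggcacttacctgtaaatgcag
Dkk1 probe 2, chr19:30245191-30245250, - strand: tgccaacttaagccaaataattaattctga

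The intensities below are the mean of a spot before background correction, over a median local background of 39 to 44, and the scanner saturated near 65284. Ratios are log2 of KO over control after background correction and loess normalization, which removes a difference between the dyes that depends on intensity, so a ratio can differ from that of the printed intensities. A channel marked by the scanner as not well above background has only a bound, given as "at least". Between spots of 245 replicated probes, a log2 ratio had a median SD of 0.063 on array 1 and 0.065 on array 2. This is the spread within 1 hybridization only, and leaves out labelling, dye and the choice of probe. The scanner's own error of a log2 ratio was at least 0.20 for every member probe with a value. Between the Cy3 channels of both arrays, which carried the same genotype, the 44 member probes that were above background on both differed with an SD of 0.19 on the log2 scale, and by at most 0.46, after scaling between arrays. The probe of TDAG51 read 350 in KO and 7283 in WT on array 1, and 44.1 in KO and 50.5 in KO Tg on array 2, both not well above background. The values on array 1 go with the source names. Those on array 2 show neither the transgene nor the Cy3 level of array 1, and do not check which channel held which sample.

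Marker genes of brain regions also differed between the KO sample and both controls, and stand beside every result below. The lists were chosen with earlier results of these data known. Several striatal, cerebellar and cortical markers, Adora2a among them, are also genes that the paper reported as changed on these arrays. The counts of these lists are therefore a description and no independent support. The direction was not always the same: the paper listed Camk2a as higher in KO than in both controls. Its brightest probe here was lower in KO than in both, and the probe behind the paper's value is not given. Of 12 cerebellar markers, 11 were at least 2-fold higher in KO than in both controls, and their summed intensity was 321805 in KO and 128036 in WT on array 1, and 328143 in KO and 131274 in KO Tg on array 2. Of 9 hindbrain markers, 6 were higher than in both, with sums of 7770, 1782, 8071 and 1869 in the same order. In contrast, 8 of 10 striatal markers (53118, 184562, 50803 and 189708), 4 of 10 markers of the cortex and hippocampus (99786, 292522, 91852 and 302870) and 4 of 6 of the olfactory bulb (10085, 79269, 10528 and 61655) were at least 2-fold lower than in both. One olfactory bulb gene, Eomes, went the other way, with log2 ratios of 0.72 and 1.09, and so did Prox1 of the cortex and hippocampus list, with 0.86 and 0.19. The brightest 2 genes of a list did not always follow it. In the hindbrain list, Hoxb5 had log2 ratios of 2.85 and 3.20 and Hoxc4 of -0.41 and -0.32. In the striatal list, Adora2a had -2.31 and -2.15 and Ppp1r1b 0.00 and -0.20, and in that of the olfactory bulb Sp8 had -3.38 and -3.17 and Tbx21 -0.48 and -0.50. The brightest cerebellar genes, Cbln1 and Zic1, were saturated in KO on both arrays, over 22062 and 62724 in WT, and the brightest cortical genes, Camk2a and Nrgn, were saturated in both controls, over 21773 and 32845 in KO on array 1, so no fold is given for them. The lists of the thalamus, meninges, endothelium and oligodendrocytes had no gene called at 2-fold from either control, and those of astrocytes and neurons had 1 each against KO Tg. The choroid plexus had 1 of 8 higher than both, Otx2 higher than WT alone (1.48 and 0.66) and 1 lower than WT (Aqp1, -1.41 and -0.12). Saturation leaves no usable ratio or only a bound for several bright genes of these lists, among them Mag, Cnp, Slc2a1, S100b, Slc1a3 and Eno2. The paper listed Mag as higher in KO than in both controls. The saturated Mag probe used here can neither show nor dismiss that difference. Among all 22322 genes measured, 2.75% were higher and 1.54% lower than both controls. Against WT, 5% were higher and 4.42% lower, and against KO Tg 4.75% and 3.78%. At such shares, no call or 1 call in so short a list does not set it apart. All list genes on the array were above background in at least 1 channel of each array, and sums that contain saturated probes are too low. The sums are not normalized and still hold the difference between the dyes. Except for the choroid plexus, the sums of the remaining lists were also lower in KO on both arrays. For astrocytes they were 240051 in KO and 302387 in WT, although the list median after normalization was 0.29. The medians of the cortex and hippocampus were -0.92 against WT and -1.08 against KO Tg. The part of these regional differences in the ratios of the Wnt genes was not tested, and in whole tissue a different share of cells and a different amount of RNA per cell cannot be told apart.

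**Figure D1:**
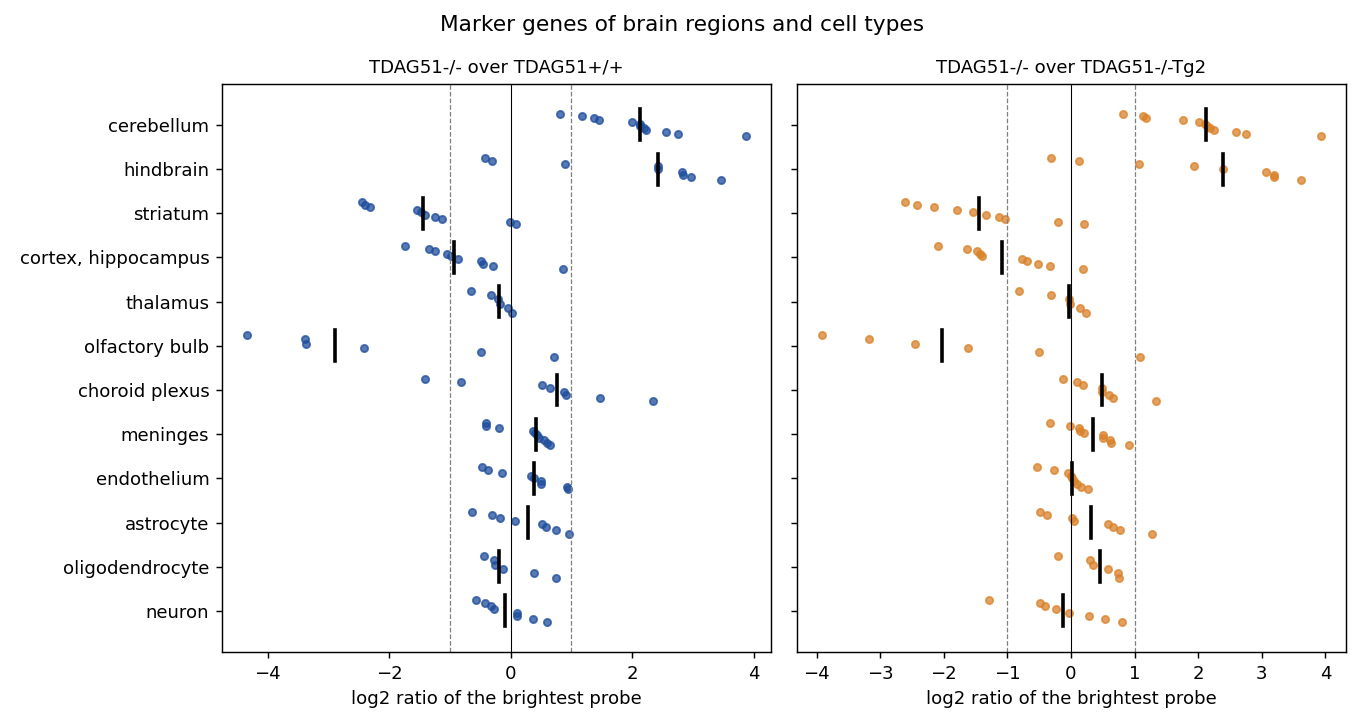
Log2 ratio of KO over WT (left) and over KO Tg (right) for each marker gene of 12 brain regions and cell types, by its brightest probe. Points are genes, black bars the medians of the lists and dashed lines a 2-fold difference. Cerebellar and hindbrain medians lie between 2.12 and 2.43, and those of the striatum and olfactory bulb between -1.44 and -2.89.

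At least 1 channel was above background for 48 of the 53 probes on array 1 and for 46 on array 2. Of these, 6 of 48 (12.5%) were at least 2-fold higher in KO than in WT, where 4.9% of all probes were, and 4 (8.33%) were at least 2-fold lower, where 4.42% were. Against KO Tg, 6 of 46 (13%) were higher and 4 (8.7%) lower, beside 4.72% and 3.86% of all probes. Without normalization, the counts were 4 higher and 6 lower than WT, and 5 higher and 6 lower than KO Tg. Relative to both controls, 4 of 44 probes (9.09%) were higher, beside 2.69%, and 2 (4.55%) were lower, beside 1.37%. The 4 were the ligands Wnt8b and Wnt7a and the receptors Fzd1 and Fzd9, and the 2 were the ligands Wnt7b and Wnt10a. Both comparisons rest on a KO sample in Cy3, so these are not independent counts. The median log2 ratio of all 53 probes was 0.05 against WT, and that of the 52 with a value was 0.05 against KO Tg, beside 0.00 for all probes of the array.

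**Figure D2:**
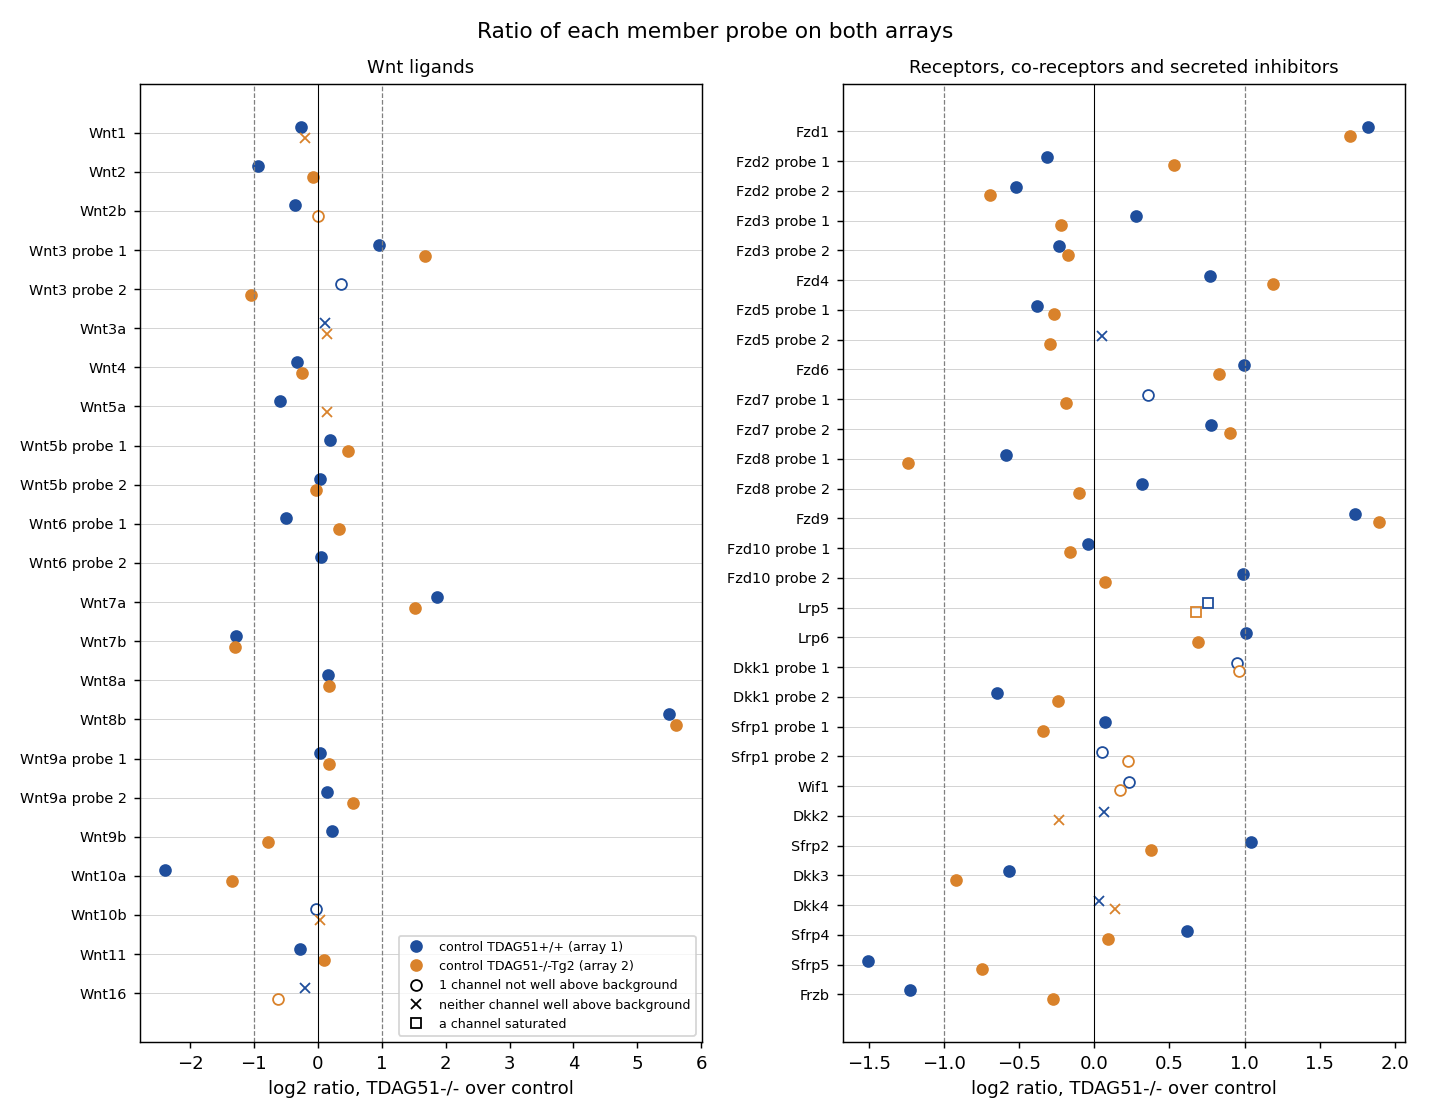
Log2 ratio of KO over WT (blue) and over KO Tg (orange) for each of the 53 probes, ligands on the left and the other genes on the right, on different horizontal scales. Open circles have 1 channel near background, crosses both and squares a saturated channel, and dashed lines mark 2-fold. Wnt8b lies apart from all the others at 5.49 and 5.61.

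Wnt8b, a ligand of the embryonic hippocampal primordium and hypothalamus, had an intensity of 11004 in KO and 265 in WT on array 1, and of 11467 in KO and 259.5 in KO Tg on array 2. All 4 channels were above background and unsaturated, and both controls lay close to each other. The ratio was 45.0-fold and 48.9-fold. The single probe was the only Wnt8b probe, so that no other sequence of the gene was measured, and the scanner's own error of its log2 ratio was 0.59 and 0.61. The related gene Wnt8a had log2 ratios of 0.16 and 0.18, with 99.2 in KO and 86.3 in WT, and 105.1 in KO and 104.7 in KO Tg.

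Wnt7a, a ligand made by cerebellar granule neurons among others, had intensities of 11631 in KO and 4177 in WT on array 1, and 10781 in KO and 4982 in KO Tg on array 2. It was 3.64-fold higher than in WT and 2.88-fold higher than in KO Tg. Wnt7b, its closest relative, which acts with it on the vessels of the developing brain, went the other way. Its intensity was 319.8 in KO and 874.3 in WT, then 379.4 in KO and 1120 in KO Tg, which was 2.42-fold and 2.46-fold lower in KO. The KO sample was therefore above both controls for the one and below both for the other.

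Wnt10a, a ligand known from teeth and hair, was weak in KO, with 72.9 against 454.6 in WT and 68.1 against 227.7 in KO Tg. It was 5.23-fold lower than in WT and 2.53-fold lower than in KO Tg, so that the controls differed more than the Cy3 channels did. Because the KO spots were near background, its value depends on the correction, and the log2 ratio against WT was -2.39 here and -3.97 by the deposited ratio. Wnt6, the gene next to Wnt10a on chromosome 1, had 4801 in KO and 5858 in WT by its brighter probe, a log2 ratio of 0.05. The scanner marked that spot as an outlier on array 2, and it was left out there. By the other probe, the ratios of Wnt6 were -0.50 and 0.33.

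Wnt3, a ligand of axis formation and adult neurogenesis, gave opposite results by its probes. Probe 1 read 428.9 in KO and 226.0 in WT, and 392.2 in KO and 129.9 in KO Tg, and was 1.94-fold and 3.21-fold higher in KO. Probe 2 read 81.0 in KO and 59.4 in WT, where WT was not well above background and the difference was at least 1.29-fold. On array 2, it read 81.3 in KO and 207.8 in KO Tg and was 2.05-fold lower in KO. Against KO Tg, the probes thus passed the 2-fold threshold in opposite directions, although both lie on the same strand, and no direction is given for the gene. Wnt9b, its neighbour on chromosome 11, had 1685 in KO and 1671 in WT, but 1642 in KO and 3384 in KO Tg, a log2 ratio of 0.23 and -0.77.

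No other ligand was called at 2-fold here. Wnt2 had 226.0 in KO and 481.6 in WT, a 1.91-fold lower value, and 198.6 in KO and 239.6 in KO Tg. Its log2 ratio against WT, -0.93, was past 2-fold with offset 0 (-1.10), without normalization (-1.05) and by the scanner's (-1.18) and the deposited ratio (-1.19). Wnt4 (log2 -0.33 and -0.25), Wnt11 (-0.28 and 0.10), the pair of Wnt5b probes (0.19 and 0.48, 0.04 and -0.03) and that of Wnt9a (0.03 and 0.17, 0.14 and 0.55) were close to both controls. Wnt5a, the main ligand of signalling without β-catenin, was weak, with 66.9 in KO and 106.0 in WT, and was near background in both channels of array 2. Its log2 ratio against WT was -0.59, but -1.18 with offset 0 and -1.63 by the deposited ratio. Wnt2b was also close to background, with -0.36 against WT. Wnt3a was not well above background in any channel. Wnt10b passed only in KO on array 1, with no fold to give, and Wnt16 passed only in KO Tg, where it was at least 1.4-fold lower in KO, a bound that does not limit the difference from above. Wnt1, the neighbour of Wnt10b on chromosome 15, was spotted 10 times on each array, and 9 spots were kept. Its intensity was 66.1 ± 2.9 in KO and 81.4 ± 3.5 in WT (SD, n = 9 spots of 1 array), and its spots on array 2 were not well above background.

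**Figure D3:**
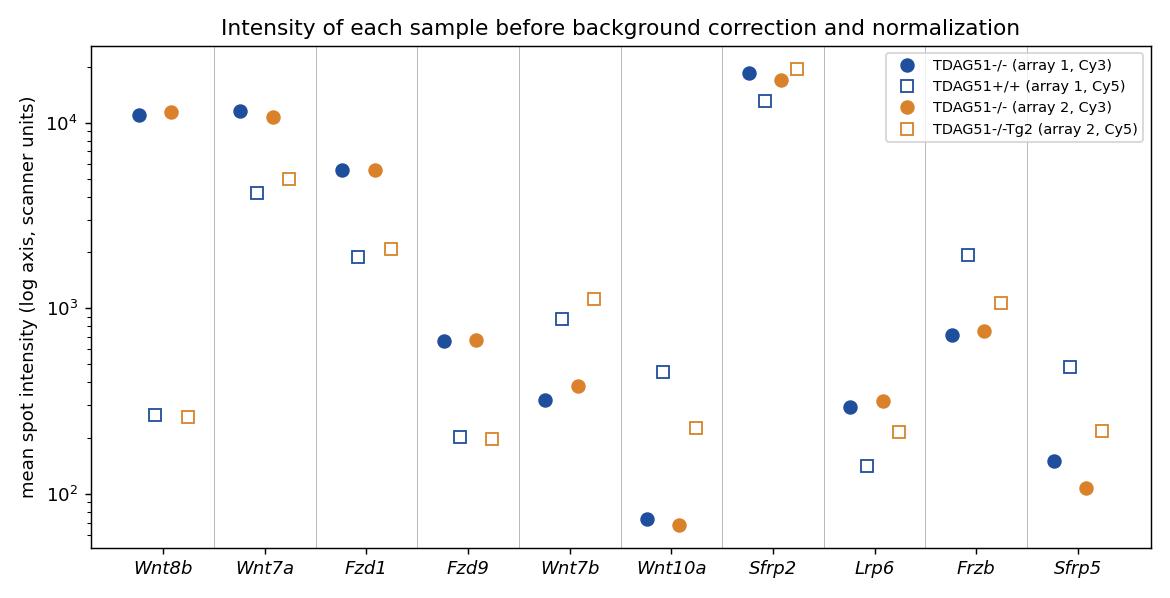
Mean spot intensity (log axis, scanner units) of 10 genes in the 4 channels, with KO as filled circles and the controls as open squares, blue for array 1 and orange for array 2. The KO circles of a gene lie close to each other, least so for Sfrp5 (150.7 and 107.2). For Wnt8b they are at 11004 and 11467 over controls at 265 and 259.5.

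Among the receptors, Fzd1, a close relative of Fzd2 and Fzd7, had 5560 in KO and 1883 in WT, and 5583 in KO and 2095 in KO Tg. It was 3.53-fold and 3.25-fold higher in KO. Fzd2 was lower in KO by its brighter probe, with 720.2 in KO and 1182 in WT, and 795.5 in KO and 1521 in KO Tg. Its log2 ratios were -0.52 and -0.69, and -0.31 and 0.53 by the other probe. Fzd7 was above both controls by less than 2-fold, with log2 ratios of 0.78 and 0.90 by its brighter probe, from 952.7 in KO and 614.7 in WT, and 751.2 in KO and 463.2 in KO Tg. Its other probe was near background in WT and gave -0.19 against KO Tg.

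Fzd9, a receptor of the hippocampus, had 666.9 in KO and 203.1 in WT, and 675.8 in KO and 198.0 in KO Tg. It was 3.33-fold and 3.72-fold higher in KO. Fzd4, the receptor of norrin in brain and retinal vessels, had 545.4 in KO and 340.3 in WT, and 728.5 in KO and 362.1 in KO Tg. It was 1.70-fold higher than in WT and 2.28-fold higher than in KO Tg, while its KO channels differed by 0.43 on the log2 scale. Fzd10, of the same branch of the family, gave 0.99 and 0.07 by its brighter probe (4572 in KO and 2790 in WT, 4378 in KO and 5277 in KO Tg), and -0.04 and -0.16 by the other.

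Fzd5 and Fzd8, a related pair, were not higher in KO by their brighter probes. Fzd8 had 844.0 in KO and 1451 in WT, and 968.9 in KO and 2722 in KO Tg, and was 1.50-fold and 2.36-fold lower in KO. Its other probe gave 0.32 and -0.10. Fzd5 had ratios of -0.38 and -0.27 by its brighter probe. The other Fzd5 probe, on the opposite strand, was not well above background on array 1 and gave -0.30 against KO Tg. Of the receptors known for axon guidance and tissue polarity, Fzd6 had 1655 in KO and 942.9 in WT, and 1878 in KO and 1245 in KO Tg, and was 1.99-fold and 1.78-fold higher, just under the threshold in the first comparison, where the deposited log2 ratio was 1.02. Fzd3 had ratios of -0.23 and -0.17 by its brighter probe, and 0.28 and -0.22 by the other. The median of all 16 receptor probes was 0.30 against WT and -0.13 against KO Tg.

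The co-receptor Lrp6 had 294.7 in KO and 141.3 in WT, and 318.2 in KO and 216.8 in KO Tg. It was 2.01-fold and 1.62-fold higher in KO, and the first value fell to 0.93 on the log2 scale without normalization. Lrp5 was saturated in both channels of array 1 and in Cy5 on array 2, which leaves no ratio to report.

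Of the secreted inhibitors, none was called at 2-fold from both controls here, but Sfrp5, Dkk1 probe 1 and Dkk3 were under other settings, as given with each. Sfrp2, which binds Wnt proteins, had 18628 in KO and 13151 in WT, and 17070 in KO and 19543 in KO Tg. The log2 ratio was 1.04 against WT, but 0.50 without normalization and 0.65 after median centring, and it was 0.38 against KO Tg, or -0.01 after median centring. Frzb, a relative of the Sfrp proteins that binds Wnt ligands, had 715.5 in KO and 1934 in WT, and 750.0 in KO and 1068 in KO Tg, and was 2.33-fold and 1.21-fold lower in KO. Sfrp5 had 150.7 in KO and 485.2 in WT, and 107.2 in KO and 217.3 in KO Tg, and was 2.83-fold and 1.68-fold lower. Its log2 ratios, -1.50 and -0.75, were past 2-fold in both comparisons with offset 0 (-1.85 and -1.08), by the scanner's ratio and by the deposited ratio (-1.99 and -1.28). For Frzb and Sfrp5, the KO Tg channel thus lay between KO and WT across the arrays, as it did for other members such as Wnt10a, Wnt2 and Lrp6. For others, such as Fzd8, Dkk3, Fzd4 and Wnt3 probe 1, KO Tg was instead farther from KO than WT was. The share of all probes with either order was not computed. The KO channels of Sfrp5 themselves differed by 0.46 on the log2 scale. Sfrp1 (0.07 and -0.34 by its brighter probe) and Sfrp4 (0.62 and 0.09) were within 2-fold of both.

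Dkk3, a divergent member of its family, had 6857 in KO and 14001 in WT, and 7316 in KO and 19780 in KO Tg, with log2 ratios of -0.57 and -0.92. Without normalization they were -1.03 and -1.43. Dkk1, the inhibitor of Lrp5 and Lrp6, gave opposite signs by its probes. Probe 1 had 115.9 in KO and 114.5 in KO over 47.9 in WT and 60.5 in KO Tg, both not well above background, and was at least 1.72-fold and 1.59-fold higher in KO. With offset 0, its log2 ratios were 2.22 and 2.00. Probe 2 had 77.5 in KO and 129.0 in WT, and 82.5 in KO and 115.7 in KO Tg, with log2 ratios of -0.64 and -0.24. Dkk2 and Dkk4 were not well above background in any channel. Wif1 passed only in KO, at 63.8 and 63.3, with a bound of 1.05-fold against WT and none against KO Tg.

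Of the 12 genes with 2 probes, 6 had a pair that was at least 1 apart on the log2 scale in at least 1 comparison, namely Dkk1, Fzd10, Fzd2, Fzd7, Fzd8 and Wnt3. For Dkk1, the control was near background by 1 of its probes. The Fzd5 probes lie on opposite strands by their coordinates, so they need not measure the same transcript. Their pair is still among the 9 counted next against KO Tg. Among the pairs whose probes were above background in both channels, the signs were opposite for 4 of 7 against WT (Fzd3, Fzd8, Fzd10 and Wnt6) and for 5 of 9 against KO Tg (Fzd2, Fzd7, Fzd10, Wnt3 and Wnt5b). Some of these signs rest on a ratio near 0, such as Fzd10 (-0.04) and Wnt6 (0.05) against WT and Wnt5b (-0.03) against KO Tg. The shares over all genes of the array with 2 probes were not computed, so neither count is shown to be particular to these genes. Wnt8b, Wnt7a, Wnt7b, Wnt10a, Fzd1 and Fzd9 each had 1 probe, so this check could not be made for them.

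**Figure D4:**
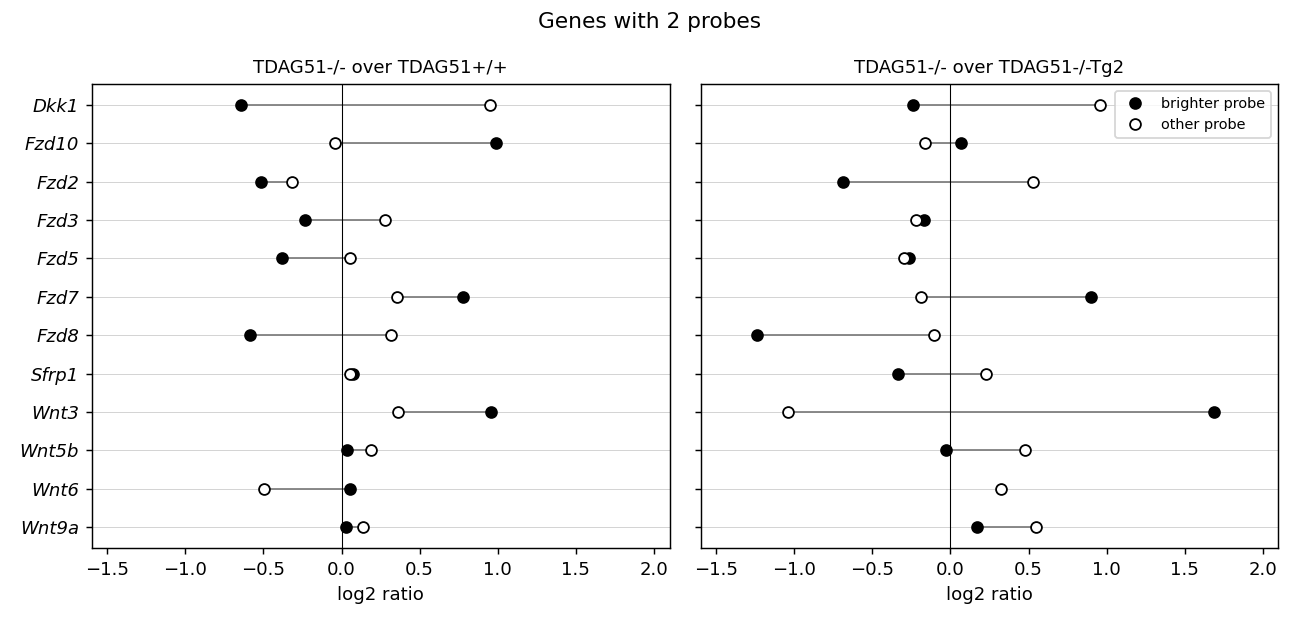
Log2 ratio of KO over WT (left) and over KO Tg (right) by the brighter probe (filled) and the other probe (open) of 12 genes, joined by a line. The Wnt3 probes are 2.72 apart against KO Tg, and the brighter Wnt6 probe has no value there.

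Since both ratios share the KO genotype, a gap between them reflects the controls and the repeat of the KO channel. The ratio against WT exceeded that against KO Tg by at least 1 for 2 of 44 probes (4.55%, beside 2.82% of all probes), which were Wnt9b (1.00) and Wnt3 probe 2. The latter has no exact gap, because its WT channel was not well above background. It was lower by at least 1 for Wnt10a alone (2.27%, beside 3.18%), with -1.05.

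Other genes of the pathway were taken from 6 lists of 54 genes, by the brightest probe of each. All 54 were above background, 1 was at least 2-fold higher in KO than in both controls, and 2 were lower, beside 2.75% and 1.54% of all genes. The higher gene was Sp5, a direct transcriptional target of β-catenin. It had 7425 in KO and 1839 in WT, and 7240 in KO and 2049 in KO Tg, which was 4.88-fold and 4.35-fold. Against WT, 5% of all genes were higher and 4.42% lower, and against KO Tg 4.75% and 3.78%. None of the other 9 feedback targets was called at 2-fold, which at such shares does not set the list apart. Of these, Ccnd1 was saturated in both controls, with 33779 and 23190 in KO, so that a 2-fold difference cannot be seen or dismissed for it. Axin2, the standard readout of the pathway, had 3239 in KO and 3376 in WT, and 2667 in KO and 4278 in KO Tg, with log2 ratios of 0.21 and -0.39.

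The lower genes were receptors. Kremen2, which binds Dkk proteins, had 112.3 in KO and 285.6 in WT, and 107.6 in KO and 641.8 in KO Tg, and was 2.27-fold and 4.71-fold lower. Ptk7, a receptor-like protein of planar polarity, had 656.1 in KO and 1993 in WT, and 592.1 in KO and 1417 in KO Tg, and was 2.64-fold and 2.02-fold lower. The Wnt secretion genes Porcn and Wls had a median of 0.67 in both comparisons, with neither at 2-fold. Of the 16 intracellular transducers, of which Csnk1a1 and Tcf7l2 were saturated in both controls, none was called against WT and 1 was lower than KO Tg, with list medians of -0.07 and -0.26. The medians of the 7 R-spondins and their receptors (-0.35 and -0.23) and of the 8 planar polarity genes (-0.29 and -0.06) were below those of all genes (0.01 and 0.02). Each of these lists had 1 gene lower than KO Tg, and the polarity list had 1 lower than WT. These counts and those of the transducers stand beside 3.78% of all genes lower than KO Tg and 4.42% lower than WT.

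**Figure D5:**
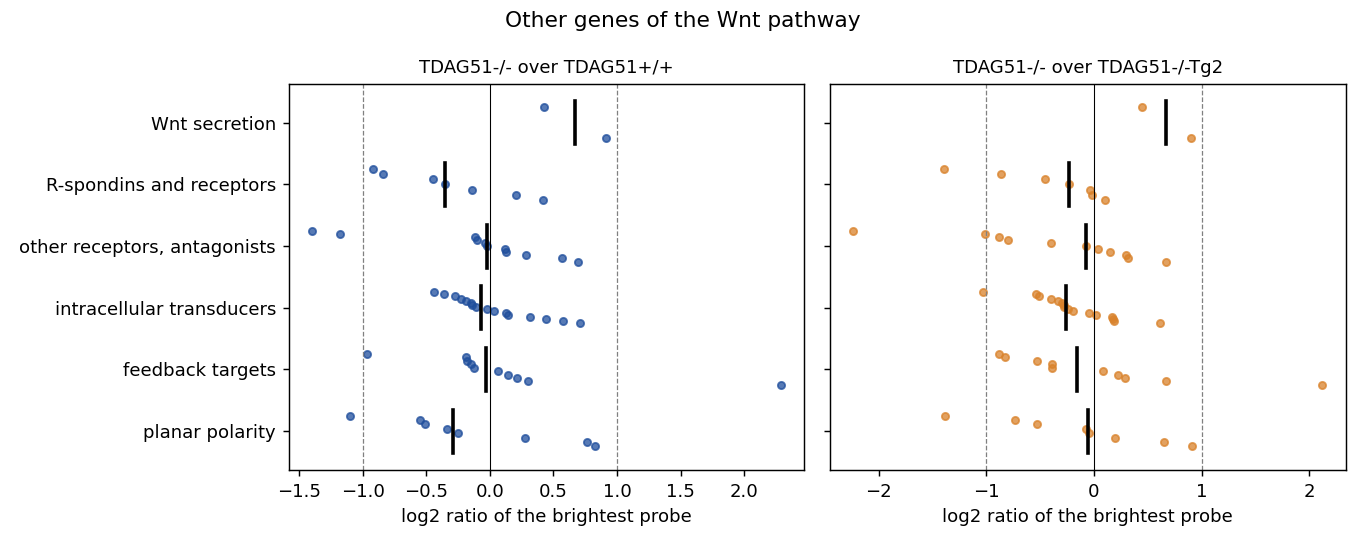
Log2 ratio of KO over WT (left) and over KO Tg (right) for 54 other genes of the pathway in 6 lists, by the brightest probe. Points are genes, black bars medians and dashed lines 2-fold. The feedback target at 2.29 and 2.12 is Sp5.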

How the data were processed

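Per the file headers, Agilent Feature Extraction 9.5.3.1 gave the deposited scanner files of both arrays, with an intensity and a background for every spot in each dye, and a log10 ratio of Cy5 over Cy3 with its p-value. A deposited log2 ratio of KO over control was also used, and how it was made is not given in the sources used here. Here, control spots and spots marked as outliers (375 on array 1 and 300 on array 2) were dropped, then limma 3.58.1 (R 4.3.3, with version 1.17.8 of data.table) was used for normexp correction with an offset of 50 and for loess normalization of each array. Replicate spots were averaged by probe. Python 3.11.15, pandas 2.3.3, numpy 2.4.6 and matplotlib 3.10.9 were used for summaries and plots. Scripts were tested on simulated data. The methods' threshold of 2-fold was applied to probes with a channel marked well above background. The offset draws ratios of weak probes toward 0. Bounds used levels after Aquantile scaling. Names of list genes came from RefSeq on GRCm38.p6, with 32719 of 41174 probes matched. The named genes are every member, pathway genes 2-fold from both controls in the same direction, the brightest 2 genes of marker lists, and TDAG51. In contrast, Axin2, Ccnd1, Porcn, Wls, other saturated list genes, Eomes, Prox1, Otx2 and Aqp1 were chosen after their values were seen. Members and lists were chosen with earlier results of these data known. Precision is limited by the number of arrays. The alternatives were offset 0, the scanner's and the deposited ratios, median centring, no normalization, other filters and other choices of probe.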

Additional observations from a re-analysis of the deposited data

How the results depend on the processing

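No paired analysis was possible because each comparison was made on 1 array. The 6 probes that were 2-fold from both controls (Wnt8b, Wnt7a, Fzd1, Fzd9, Wnt7b and Wnt10a) passed 2-fold in both comparisons under all 6 ways of computing the ratio, and no called ratio changed sign. The 6 probes higher than WT became 12 with the scanner's log ratio, 12 with that ratio at p under 0.05 and 12 with the deposited ratio. The 4 probes lower than WT became 7 with offset 0, 7 with the scanner's ratio, 7 at p under 0.05 and 8 with the deposited ratio. The 4 lower than KO Tg became 7 with the deposited ratio and 2 with the median of the probes of a gene, which counts genes and averages discordant pairs. With offset 0, the scanner's ratio and the deposited ratio, the 4 probes higher than both controls became 6, with Wnt3 probe 1 and Dkk1 probe 1, and the 2 lower became 3, with Sfrp5. The remaining counts stayed within 1.5 times under the 11 alternatives. The cause of the larger counts was not tested. The ratio of Dkk1 probe 1 against WT, 0.95, was 2.22 with offset 0 and 3.96 by the deposited ratio, with a control near background. Before normalization, the median log2 ratio of all probes above background was -0.19 on array 1 and -0.25 on array 2, which set Fzd4 against KO Tg at 0.97 and Lrp6 and Sfrp2 against WT at 0.93 and 0.50. Signal over background limits the weak genes, and saturation limits Lrp5.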

Other observations

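The 8 protein-coding genes next to Wnt8b on chromosome 19 (4 on each side), chosen after the values of Wnt8b were seen, did not share its ratio. Of these, 7 were above background on both arrays, and their log2 ratios lay between -0.38 and 0.76 over both comparisons. The nearest measured genes were Scd1 on one side (31475 in KO and 51703 in WT, 25379 in KO and 34826 in KO Tg, log2 ratios of -0.03 and 0.19) and Ndufb8 on the other (14117 in KO and 27323 in WT, 16820 in KO and 29786 in KO Tg, -0.38 and -0.22). Sec31b, directly next to Wnt8b, was not matched to a probe. The upper end of the range was Scd2, which was saturated in Cy5.

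Across the members, the control channels of the arrays differed more than the KO channels did. The SD of the log2 difference between arrays was 0.56 over 38 member probes for WT and KO Tg, and 0.19 over 44 for KO against KO, with no test because each is a comparison of a pair of channels. The sets of probes differ, and so do the dyes, Cy5 for the controls and Cy3 for KO. Over all probes, the SD was 0.20 for KO and was not computed for the controls, so the larger value is not shown to be particular to the members.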
